A study of Mus musculus with 6 samples.

Results

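The 9 genes described here encode selenoprotein P (Sepp1, now Selenop), selenoprotein W (Sepw1, now Selenow), selenoprotein N (Sepn1, now Selenon), the glutathione peroxidases Gpx1, Gpx3 and Gpx4, mitochondrial thioredoxin reductase (Txnrd2), type 2 iodothyronine deiodinase (Dio2) and selenophosphate synthetase 2 (Sephs2). They were taken by exact gene symbol from the array's annotation, which gave 71 probe sets for them out of 241576 on the array, and 9 genes out of 20416. The group was chosen by a reading of the changes between insulin and control arrays in these same data, so the values of the 9 genes are a description and are not tested.

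RNA came from C2C12, a mouse myoblast line that fuses into myotubes once serum is lowered. Cells were grown in 10% fetal bovine serum, moved to 2% horse serum and used as myotubes between days 4 and 7. The insulin group of 3 cultures was kept in 100 nM insulin for 48 h, and the control group of 3 cultures was left untreated; medium was renewed every 24 h. The labels call the arrays of a group biological replicates and do not say how far the cultures were separate. The SDs below therefore measure the spread between these cultures of a single line. Each SE and 95% interval comes from the limma fit, which draws a gene's variance toward a value shared by all genes. An SE can thus be wider or narrower than the gene's own spread would give.

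Selenoproteins carry selenocysteine, an amino acid inserted at a UGA codon that would otherwise end translation. Insertion needs a hairpin in the messenger RNA, a dedicated transfer RNA and its own elongation factor, and selenium supply affects the stability of several of these messenger RNAs. Selenoprotein P, made mostly by liver, carries selenium to other tissues in plasma. Many other members are enzymes that reduce peroxides or thioredoxin, and mutations in the gene of selenoprotein N cause a muscle disease.

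Values are log2 of the signal after RMA, a method that brings the arrays to a like overall distribution. A gene's value on an array is the median over its probe sets, and a change of -1 on this scale is a halving. All 9 genes passed the filter on dim genes, a mean of at least 7.05. Array medians ran from 8.79 to 8.82, and a principal component with 58.6% of the variance set insulin arrays apart from controls. The myotube markers were bright, with control means from 10.3 to 14.2 over 12 genes. Markers of hepatocytes, macrophages and endothelium were mostly too dim to be tested, with 1 of 8, 2 of 6 and 1 of 5 above the filter. Of the adipocyte markers 4 of 7 were above it. None of these passed the threshold. The macrophage marker Cd14 (0.21) was higher on every insulin array and the adipocyte marker Retn (-0.195) lower on every one. The count of all genes past the threshold, 1366 higher and 908 lower of 14291, depended on single arrays. It was 2274 in all, 1237 when control 2 was left out, and 1267, 1046 or 1114 when insulin 1, 2 or 3 was. With quantile normalization repeated, 1262 genes were higher and 969 lower.

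Selenoprotein P and plasma glutathione peroxidase were the members with the widest gaps between groups. Sepp1 fell 2.20-fold and Gpx3 fell 1.66-fold after insulin, and the differences of the other 7 genes were at most 0.26 on the log2 scale in either direction. In the limma fit over all genes, 2 of the 9 passed a Benjamini-Hochberg adjusted p of 0.05, both lower, where 15.9% of all tested genes passed (6.35% lower and 9.56% higher). Insulin and control arrays did not overlap in 5 of the 9, with 3 lower and 2 higher, where 35.7% of all tested genes had no overlap (15.7% lower and 20.0% higher). Since this contrast led to the choice of the genes, nothing is read from these shares. The median change was -0.014 for the 9 genes and -0.0028 for all tested genes.

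**Figure D1:**
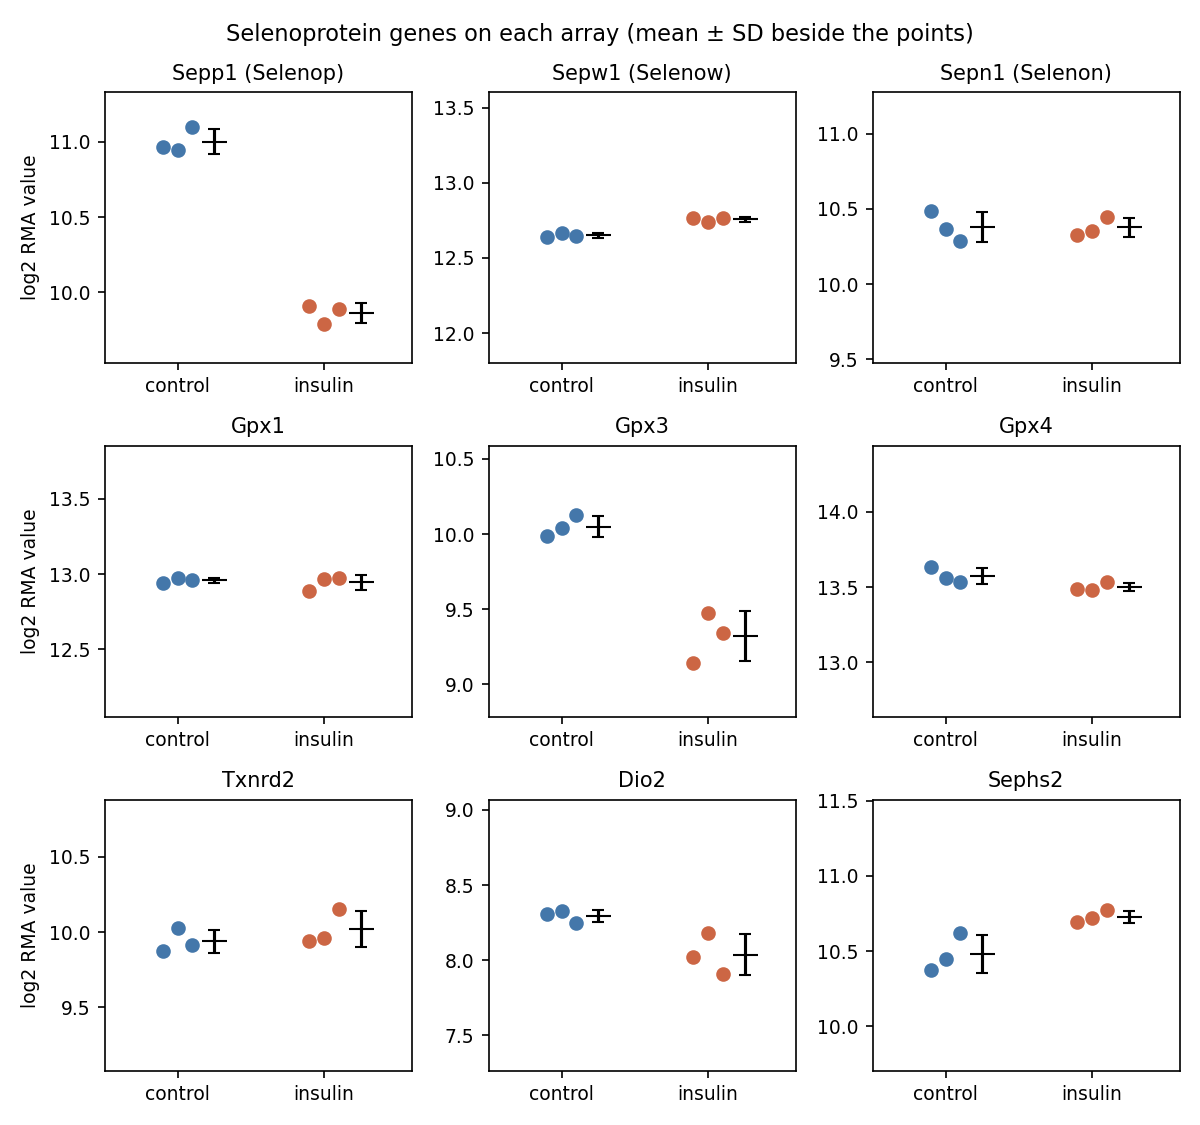
Each panel plots the log2 RMA values of 1 gene on the 3 control arrays (blue) and the 3 insulin arrays (orange), with the group mean ± SD in black, and all panels span the same number of log2 units. Sepp1 and Gpx3 show wide gaps between the groups and Dio2 a smaller one, while the points of Gpx1, Gpx4, Sepn1 and Txnrd2 overlap.

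Sepp1 encodes the secreted selenium carrier. The control arrays read 10.96, 10.94 and 11.10, and the insulin arrays read 9.91, 9.79 and 9.89. The gap between the groups was many times the spread within either. The level went from 11.00 ± 0.083 to 9.86 ± 0.067 (SD, n = 3 each), a change of -1.14 ± 0.072 (SE), which held rank 6 among the falls of all tested genes. Less RNA per cell and fewer cells of a kind that makes the transcript cannot be told apart in such bulk samples.

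The fall was seen along the Sepp1 transcript. Of its 5 probe sets, the 4 bright ones fell by 0.91, 1.16, 1.09 and 1.13 in order of brightness, each with no overlap between groups. The remaining one was dim, with a mean of 6.23, and its difference was -0.22 with overlapping arrays. With any 1 array left out the change of Sepp1 stayed between -1.17 and -1.09, and the mean over its probe sets gave -0.90.

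In liver, transcription of Selenop is known to be driven by FoxO1 with the coactivator PGC-1α and by HNF4α, and insulin restrains it by moving FoxO proteins out of the nucleus. The upstream sequence is shown for that reason. RefSeq (GRCm38.p6) gives 3 start sites for Selenop on the plus strand. Searched on both strands were the FoxO element GTAAACA, the cAMP response element TGACGTCA, the antioxidant response element TGACNNNGC, the TATA box TATAAA and the CCAAT box. The 250 bases before the first start hold none of these 5 motifs, nor do those before the second. Before the third start there is a FoxO element 24 to 18 bases ahead, and 30 bases around it are given with the element in capitals.
Selenop, before the first start, chr15:3270517-3270766: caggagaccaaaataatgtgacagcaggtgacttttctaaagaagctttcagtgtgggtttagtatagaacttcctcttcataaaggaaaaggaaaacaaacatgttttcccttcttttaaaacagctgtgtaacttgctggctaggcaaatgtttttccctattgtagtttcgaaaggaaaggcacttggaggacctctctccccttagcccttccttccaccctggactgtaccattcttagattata
Selenop, FoxO element before the third start, chr15:3270941-3270970: tcagagggcgagGTAAACAacagggctata
The FoxO element occurred in 3.17% of the 32851 promoter windows of 250 bases in RefSeq. Among the 9 genes it was found in Selenop alone, before the third of its 3 starts only. Such shares count windows, and a gene with several starts had more windows searched, with 3 for Selenop and 4 for Gpx4. The share is therefore not the rate for a whole gene. No match in the 9 genes overlapped a match of another motif. A match of letters is not a measured binding site.

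Genes of these liver factors, and the related Foxo3 and Foxo4, were measured in the myotubes. Their RNA levels do not show where FoxO proteins lie in the cell. Of 5 genes 4 were tested, and 1 fell and 0 rose, where 6.35% of all tested genes fell and 9.56% rose. At an unadjusted p of 0.05 the limma fit had 3 lower and 0 higher, where 13.2% of all tested genes were lower and 16.7% higher. Foxo3 fell by 0.35 ± 0.071 (SE), from 10.97 ± 0.051 to 10.63 ± 0.088 (SD, n = 3 each; limma adjusted p = 0.0155), and the call was lost without control 2 (0.0639) or insulin 3 (0.0611). Foxo1 was at -0.20 ± 0.083 and missed the threshold (limma adjusted p = 0.152). It passed with array quality weights (0.00871), with the mean over probe sets (0.0453), with the brightest probe set (0.0362) and with the brighter ones (0.0149). Foxo4 was at -0.28 ± 0.10 (limma adjusted p = 0.105) and Hnf4a at 0.080 ± 0.063 (0.446). Ppargc1a, the gene of PGC-1α, was below the filter, with means of 6.62 in controls and 6.41 after insulin.

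Of 3 receptor genes for selenoprotein P, 1 rose, 1 did not pass and 1 was not tested, where 9.56% of all tested genes rose and 6.35% fell. Lrp8 encodes apolipoprotein E receptor 2, known to take up the protein in brain and testis. It read 8.69, 8.65 and 8.58 in controls and 9.36, 9.16 and 9.27 after insulin, with no overlap. The rise of 0.63 ± 0.075 (SE) had a limma adjusted p of 0.00197. Of its 20 tested probe sets 14 passed, all higher, and over all 21 the median change was 0.98, with a range of -0.29 to 1.85. The brightest one gave -0.12 (limma adjusted p = 0.681), so the direction for Lrp8 turned with that choice. Lrp1, a broadly expressed receptor reported to bind the protein in muscle, was at -0.29 ± 0.12 (limma adjusted p = 0.154). It passed without control 3 (-0.42, 0.0175) and with array quality weights (-0.31, 0.0105). Lrp2, the kidney receptor megalin, was too dim to be tested.

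The genes closest to Sepp1 over the 6 arrays, each centred on its own mean, were Id3, Cp, Cxcr4, Gprin3 and Ctgf (Ccn2). Their Euclidean distances to it were 0.15, 0.20, 0.20, 0.22 and 0.28 log2 units, and Pearson's r over the 6 arrays ran from 0.984 to 0.996. The arrays fall into 2 groups, so this likeness is mostly that of a fall of similar size. Id3, an inhibitor of myogenic transcription factors, lay at -1.13, Cp (ceruloplasmin, the copper carrier of plasma) at -1.09, the chemokine receptor gene Cxcr4 at -1.26, Gprin3 at -1.08 and the matrix protein gene Ctgf at -1.02. The brightest Gprin3 probe set gave -0.27 and did not pass (limma adjusted p = 0.251).

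Gpx3 encodes the secreted glutathione peroxidase of plasma. The controls read 9.98, 10.04 and 10.13, and the insulin arrays 9.14, 9.48 and 9.34. All insulin arrays were lower, with insulin 1 the lowest. The level went from 10.05 ± 0.072 to 9.32 ± 0.17 (SD, n = 3 each), a change of -0.73 ± 0.094 (SE) that lay between -0.81 and -0.64 when single arrays were left out. Of the 6 probe sets, 5 were lower on every insulin array, by 0.62 to 0.89. The second brightest did not move with them, at 10.19 ± 0.18 in controls and 10.20 ± 0.0027 after insulin (SD, n = 3 each). The 250 bases before the RefSeq start of Gpx3, on the plus strand, hold 1 of the 5 motifs, a CCAAT box read on the other strand, shown in capitals.
Gpx3, before the start, chr11:54902604-54902853: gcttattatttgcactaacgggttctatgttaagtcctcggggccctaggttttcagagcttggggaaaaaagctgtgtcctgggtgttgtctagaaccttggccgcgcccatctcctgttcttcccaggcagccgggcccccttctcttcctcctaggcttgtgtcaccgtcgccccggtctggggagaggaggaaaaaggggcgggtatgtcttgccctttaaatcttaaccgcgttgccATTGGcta
A CCAAT box occurred in 33.8% of all windows. Sephs2 held one too, and so did Gpx4, for which 4 windows were searched.

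Both intracellular peroxidase genes lay near 0. Gpx1, the abundant cytosolic enzyme that clears hydrogen peroxide, read 12.94, 12.97 and 12.96 in controls and 12.89, 12.97 and 12.98 after insulin. Its groups overlapped, and the change was -0.014 ± 0.062 (SE), with a 95% interval of -0.16 to 0.13. Gpx4, which reduces lipid hydroperoxides and guards cells against ferroptosis, read 13.63, 13.56 and 13.53 in controls and 13.49, 13.48 and 13.53 after insulin. Its groups overlapped too, at -0.072 ± 0.063 (95% interval -0.22 to 0.072), and all 9 of its probe sets lay below 0, between -0.14 and -0.014. Of the 36 pairs of Gpx4 probe sets 1 had identical values on every array, so not all 9 are separate measurements.

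**Figure D2:**
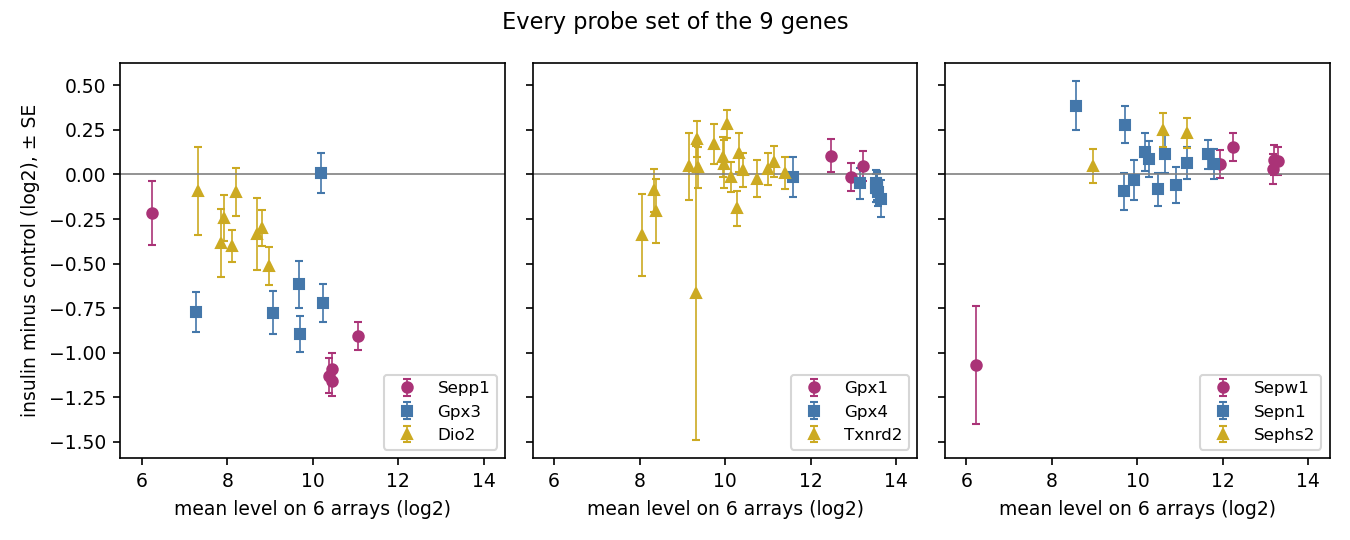
Each point is 1 probe set of the 9 genes, with its mean log2 level over the 6 arrays on the x axis and insulin minus control in log2 units (± SE of the limma fit) on the y axis. The 4 bright Sepp1 probe sets lie between -1.16 and -0.91, 5 of the 6 of Gpx3 between -0.89 and -0.62, and all 8 of Dio2 below 0, while those of Gpx1 and Gpx4 gather near 0.

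Probe sets were also fitted one by one. Of the 67 tested ones of the 9 genes, 9 passed limma's adjusted threshold, all lower, where 4.87% of all tested probe sets passed (1.44% lower and 3.43% higher). Sepp1 had 4 of them, Gpx3 4 and Dio2 1. As with the genes, nothing is read from this share.

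Dio2 encodes the deiodinase that makes the active thyroid hormone T3 from T4 inside muscle and other tissues. Controls read 8.31, 8.33 and 8.25, and insulin arrays 8.02, 8.18 and 7.91. The insulin arrays were all lower and more scattered than the controls. The level went from 8.29 ± 0.042 to 8.04 ± 0.13 (SD, n = 3 each), and the change of -0.26 ± 0.081 (SE) did not pass. All 8 probe sets lay below 0, between -0.51 and -0.092, 3 of them with no overlap between groups. The brightest, at -0.51, was the one that passed. The gene counted as past the threshold with array quality weights (-0.28), with the mean over probe sets (-0.30) and with the brightest one.

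The Dio2 promoter is known for a cAMP response element. In the 250 bases before the RefSeq start, on the minus strand, this element lies 95 to 88 bases ahead of the start and a TATA box 30 to 25 bases ahead, both in capitals.
Dio2, before the start, chr12:90739039-90739288: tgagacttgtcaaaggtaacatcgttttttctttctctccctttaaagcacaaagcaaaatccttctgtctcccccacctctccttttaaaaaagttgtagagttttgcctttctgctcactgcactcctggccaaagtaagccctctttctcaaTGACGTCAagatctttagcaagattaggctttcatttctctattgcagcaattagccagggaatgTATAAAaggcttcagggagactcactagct
The cAMP response element occurred in 1.55% of all windows and in no other of the 9 genes. A TATA box occurred in 12.4% of all windows, and Selenop and Sephs2 held one as well. The antioxidant response element occurred in 10.2% of all windows and in 0 of the 9 genes.

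Of 9 listed genes that carry, bind or answer thyroid hormone, 6 were tested. The threshold was passed by 1, which fell, and missed by 5, and at an unadjusted p of 0.05 the limma fit had 3 lower and 0 higher. Over all tested genes 6.35% fell and 9.56% rose, and 13.2% were lower and 16.7% higher at that unadjusted p. Crym, encoding the T3-binding protein mu-crystallin, fell by 0.57 ± 0.11 (SE), from 10.94 ± 0.050 to 10.38 ± 0.24 (SD, n = 3 each; limma adjusted p = 0.0143). That call was lost without control 2 (0.0529) or insulin 2 (0.0560). Thra, the main thyroid hormone receptor gene of muscle, was at -0.30 ± 0.11 (limma adjusted p = 0.115). It passed with array quality weights (0.0179), the mean over probe sets (0.0127) or the brighter ones (0.0435). The coregulator genes Ncoa1 (-0.036) and Ncor1 (0.093) lay nearest to 0 of the 6.

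Sephs2 makes selenophosphate, the selenium donor for selenocysteine, and is itself a selenoprotein. Controls read 10.38, 10.45 and 10.62, and insulin arrays 10.69, 10.72 and 10.77. The insulin arrays were all higher, with control 3 nearest to them. The change was 0.25 ± 0.079 (SE) and did not pass, and the 3 probe sets lay at 0.23, 0.25 and 0.047 in order of brightness. The gene counted as past the threshold without control 3 (0.32), with the filter at the 50th percentile, with array quality weights (0.27) and with the mean over probe sets (0.18).

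Sepw1 encodes a small thioredoxin-like protein abundant in muscle. Controls read 12.64, 12.67 and 12.65, and insulin arrays 12.77, 12.74 and 12.76. The groups did not overlap (SD 0.015 in controls and 0.017 after insulin). Yet the change was small at 0.10 ± 0.059 (SE of the limma fit) and did not pass. The 5 bright probe sets lay between 0.033 and 0.15. The sixth, with a mean of 6.21, was at -1.07 ± 0.33 (SE), and the mean over all 6 gave -0.11, so the sign for Sepw1 turned with the way probe sets were combined.

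Sepn1 encodes a selenoprotein of the endoplasmic reticulum that acts in the calcium handling of muscle. It read 10.49, 10.37 and 10.28 in controls and 10.33, 10.35 and 10.45 after insulin, with overlapping groups. The change was -0.0019 ± 0.076 (SE; 95% interval -0.18 to 0.17), and 8 of its 12 probe sets lay above 0. Txnrd2, the thioredoxin reductase of mitochondria, read 9.87, 10.03 and 9.92 in controls and 9.94, 9.96 and 10.16 after insulin, also overlapping. Its change was 0.082 ± 0.082 (SE; 95% interval -0.11 to 0.27), with 12 of 19 probe sets above 0.

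The remaining mouse selenoprotein genes were listed from general knowledge of the family. Of 15, 14 were found in the annotation, 4 of them under another symbol, and 13 were bright enough to be tested. Of these 2 rose, none fell and 11 did not pass, with a median change of 0.017, where 9.56% of all tested genes were higher and 6.35% lower. At an unadjusted p of 0.05 the limma fit had 3 higher and 0 lower, where 16.7% of all tested genes were higher and 13.2% lower. Over the whole family of 22 tested genes, 2 rose, 2 fell and 18 did not pass.

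**Figure D3:**
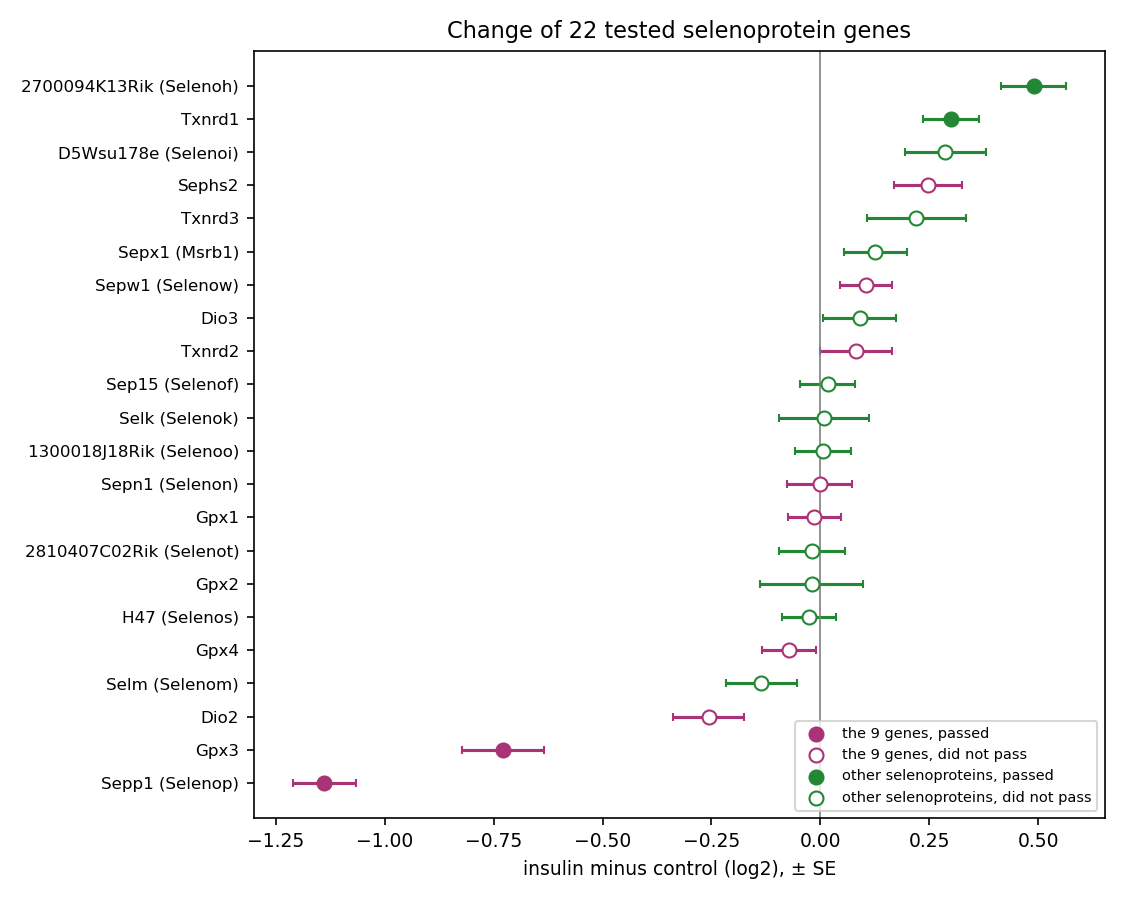
Insulin minus control in log2 units (± SE of the limma fit) for the 22 tested selenoprotein genes in order of change, with the 9 genes in purple and the other 13 in green; filled points passed the adjusted threshold of 0.05. Sepp1 (-1.14) and Gpx3 (-0.73) lie at the low end, and 2700094K13Rik (Selenoh, 0.49) and Txnrd1 (0.30) at the high end.

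The larger rise was that of 2700094K13Rik (Selenoh), a nucleolar selenoprotein gene. It read 12.13, 12.32 and 12.33 in controls and 12.77, 12.76 and 12.73 after insulin. All insulin arrays were higher, with control 1 the lowest of all 6. The rise of 0.49 ± 0.074 (SE) had a limma adjusted p of 0.00495 and passed under each of 16 alternatives (0.000438 to 0.0262). All 5 of its probe sets were higher without overlap, by 0.43 to 0.70. The messenger RNAs of Selenoh, Gpx1 and Selenow are known to be among those that drop most in selenium-deficient rodent liver, and here Gpx1 lay at -0.014 and Sepw1 at 0.10. Whether selenium supply differed between these myotube groups was not tested.

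Txnrd1, the cytosolic thioredoxin reductase and a known target of NRF2, rose from 11.79 ± 0.025 to 12.09 ± 0.064 (SD, n = 3 each), a change of 0.30 ± 0.064 (SE; limma adjusted p = 0.0185). The call was lost without control 2 (0.0558), insulin 1 (0.0556) or insulin 2 (0.0799) and with the brightest probe set (0.0591), and the change lay between 0.24 and 0.32 in 16 alternatives. Of the 20 Txnrd1 probe sets 18 lay above 0, with a range of -0.071 to 0.91, and 0 of the 19 tested passed one by one. The mitochondrial relative Txnrd2 lay at 0.082, and the difference between Txnrd1 and Txnrd2 was not tested. D5Wsu178e (Selenoi), an ethanolamine phosphotransferase gene, was at 0.29 ± 0.093 (limma adjusted p = 0.0748) and passed in 5 of 16 alternatives, the fit without control 3 among them. Sep15 (Selenof), Selk, Selm, H47 (Selenos) and 2810407C02Rik (Selenot) encode some of the selenoproteins of the endoplasmic reticulum. They lay between -0.14 and 0.017, and none passed, except Selm with array quality weights. These genes were named after their values were seen and do not stand for all selenoproteins of that compartment. Among these other 13 genes the changes nearest to 0 were those of 1300018J18Rik (Selenoo, 0.0063) and Selk (0.0085).

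The apparatus that makes and inserts selenocysteine held genes on both sides of 0. Of its 14 genes 2 passed, both higher, and 12 missed the threshold, with a median of 0.12, and at an unadjusted p of 0.05 the limma fit had 6 higher and 2 lower. The share that passed is near the 15.9% of all tested genes, of which 16.7% were higher and 13.2% lower at the unadjusted p. Ncl (nucleolin, which can bind the insertion hairpin and also serves ribosome assembly) rose by 0.36 ± 0.072 (SE; limma adjusted p = 0.0135). It did not pass without insulin 1 (0.0551) or insulin 2 (0.0529), nor with its brightest probe set (0.17, 0.194). Sephs1, a relative of Sephs2 without selenocysteine, rose by 0.27 ± 0.074 (limma adjusted p = 0.0461). That call was lost in 11 of 16 alternatives, including the removal of any 1 array (0.0508 to 0.146), no filter (0.0819), the replicate number as a block (0.0568) and the brightest probe set (0.10, 0.336).

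Secisbp2 and its relative Secisbp2l, whose proteins are built around binding of the insertion hairpin, lay below 0. Secisbp2, the factor that recruits the elongation complex, read 9.94, 9.90 and 9.73 in controls and 9.64, 9.38 and 9.60 after insulin, with no overlap. Its change of -0.32 ± 0.093 (SE) missed the threshold (limma adjusted p = 0.0565) and passed in 7 of 16 alternatives, the fit without control 3 among them (-0.38, 0.0350), while the brightest probe set gave -0.046 (0.768). Its relative Secisbp2l was at -0.27 ± 0.083 (limma adjusted p = 0.0639) and passed in 4 of 16, with the block, median centring, the filter at the 50th percentile or the intensity trend. Sepsecs, Eefsec and Pstk lay above 0 without passing. Sepsecs, the selenocysteine synthase, was at 0.25 ± 0.091 (limma adjusted p = 0.102), and passed with the mean over probe sets (0.0270). Eefsec, the elongation factor, was at 0.19 ± 0.081 (limma adjusted p = 0.156), and passed with that mean (0.00549) and with the brightest probe set (0.37, 0.0272). Pstk, the kinase that primes the transfer RNA, was at 0.41 ± 0.15 (limma adjusted p = 0.0974) and passed in 3 of 16 alternatives, with array quality weights, with the replicate number as a block and without control 3. Trnau1ap (0.0086) and Prdx6 (-0.015) lay nearest to 0 of the 14.

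Relatives with cysteine in place of selenocysteine gave no calls. Of 7, 5 were tested by limma and 0 passed, with 2 higher and 1 lower at an unadjusted p of 0.05 and a median of -0.045, beside 15.9% of all tested genes passing and 16.7% higher and 13.2% lower at the unadjusted p. The methionine sulfoxide reductase genes lay on both sides of 0, with Msra at 0.33 ± 0.14, Msrb2 at 0.24 ± 0.069 and Msrb3 at -0.25 ± 0.076 (SE). Among 16 alternatives Msra passed in 1, Msrb2 in 5 and Msrb3 in 6. The peroxidase genes Gpx7 (-0.045 ± 0.077) and Gpx8 (-0.12 ± 0.064) lay nearest to 0.

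The enzymes that supply glutathione and thioredoxin to these pathways included a few that rose. Of 17 tested genes 3 passed, each of them higher, and 14 missed the threshold, with a median of 0.088, and at an unadjusted p of 0.05 the limma fit had 5 higher and 2 lower. This too is near the background of 15.9% passing, and of 16.7% higher and 13.2% lower at the unadjusted p. Gclm and Gclc, the subunits of the enzyme that starts glutathione synthesis, rose by 0.61 ± 0.072 and 0.47 ± 0.094 (SE), with limma adjusted p of 0.00197 and 0.0143. Gsr, glutathione reductase, rose by 0.39 ± 0.070 (limma adjusted p = 0.00901). Gclc was lost without insulin 2 (0.0612) or insulin 3 (just above 0.05), and Gsr with its brightest probe set (0.0594). The 2 genes lower at the unadjusted p were Gss, glutathione synthetase, and Prdx5. Gss was at -0.20 ± 0.061 (SE; limma adjusted p = 0.0606) and Prdx5 at -0.21 ± 0.059 (0.0511). Both were lower on every insulin array, and each passed as lower in 5 of 16 alternatives. Glrx (-0.018) and Prdx2 (0.019) lay nearest to 0 of the 17. Slc7a11, the cystine transporter upstream of glutathione synthesis and no member of this list, read 6.69, 7.06 and 6.31 in controls and 10.21, 10.30 and 10.15 after insulin. Its rise of 3.54 ± 0.17 (SE; limma adjusted p = 3.58e-05) was far larger than the spread within either group. The control mean of 6.69 lay below the filter level of 7.05, so Slc7a11 was tested only through its insulin arrays. The size of its rise therefore rests on a dim control level.

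**Figure D4:**
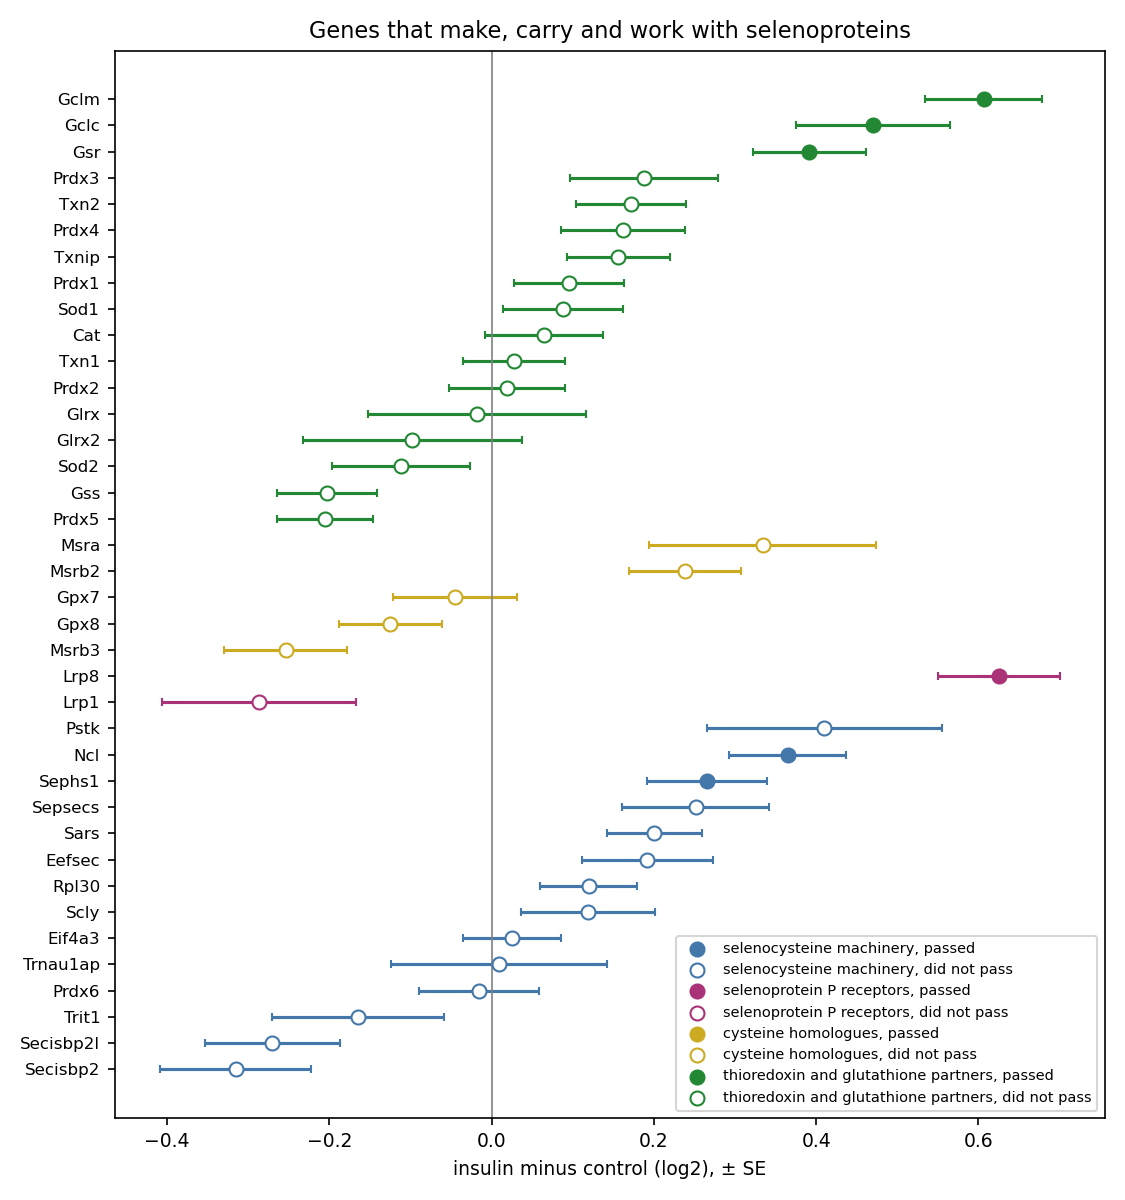
Insulin minus control in log2 units (± SE of the limma fit) for the tested genes of selenocysteine synthesis and insertion, selenoprotein P receptors, cysteine relatives, and glutathione and thioredoxin partners; filled points passed the adjusted threshold of 0.05. The filled points are Gclm, Gclc, Gsr, Lrp8, Ncl and Sephs1, all above 0.

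Of 12 myotube markers 4 fell (Ckm, Myog, Actn2 and Ryr1) and none rose, where 6.35% of all tested genes fell and 9.56% rose. At an unadjusted p of 0.05 the limma fit had 8 lower and 0 higher. Of all tested genes 13.2% were lower and 16.7% higher at that p. Insulin arrays lay below controls without overlap in 11 of the 12, as in 15.7% of all tested genes. Changes ran from -0.53 to -0.10. Summed log2 levels were 154.9 to 157.1 in controls and 152.6 to 153.0 after insulin. The fibroblast markers lay on both sides of 0. Of 6 tested 1, Dcn (decorin), fell, by 0.57, and none rose, against 6.35% and 9.56% of all tested genes. Thy1 (0.27) and Dpt (0.20) were higher on every insulin array without passing, Pdgfra (-0.25) was lower on every one, and Col1a1 (-0.19) and Col1a2 (0.057) overlapped. At an unadjusted p of 0.05 the limma fit had 2 higher and 2 lower, and the summed level of all 8 was 69.1 to 69.6 in controls and 68.6 to 68.8 after insulin. The defining liver marker Alb was below the filter, with means of 5.86 and 5.92. The part of these marker changes in the falls of Sepp1 and Gpx3 was not tested.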

How the data were processed

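RNA of 6 C2C12 cultures (25 ng each, amplified) was measured on arrays. The authors deposited log2 values for every probe set and array, computed by RMA per the submitters' processing notes. Its version and the log base were not stated; base 2 rests on the range of the values. Detection calls and scan batches were not analysed here. Precision is limited by having 3 arrays a group.

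The 212097 probe sets with exactly 1 symbol were summarised per gene by the median, with current names from RefSeq. Genes under the 30th percentile of mean level were left out. The contrast of insulin and control used limma 3.58.1 in R 4.3.3 (two-sided, no covariates, Benjamini-Hochberg over all genes). In simulated data of 14291 genes for this contrast, 200 were changed. There 95% of changes of 1 and 66% of changes of 0.5 (log2) were recovered, with 10 false calls among 171. Many more genes passed in the real data (2274), so these rates need not hold for them.

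The 9 genes, the lists and the motifs were chosen with earlier results of these data known. Named genes are the 9, list genes past the threshold, the 2 smallest changes of a list and the 5 nearest to Sepp1. Another 11 were genes of interest (Txnrd1, Secisbp2, Sepsecs, Eefsec, Lrp1, Lrp8, Foxo1, Foxo3, Ppargc1a, Thra, Slc7a11). Foxo4, Msra, Msrb2, Msrb3, Pstk, Secisbp2l, Gss, Prdx5, D5Wsu178e, Cd14 and Retn were named after their values were seen. So were the fibroblast markers and the genes of the endoplasmic reticulum. Alternatives covered normalization, the filter, the variance prior, array weights, the summary of probe sets, the replicate number as a block and leaving out each array. Promoters are from RefSeq (GRCm38.p6); no build is named for the array.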

Additional observations from a re-analysis of the deposited data

How the results depend on the processing

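Over 16 alternatives the change of Sepp1 ran from -1.17 to -0.90 and that of Gpx3 from -0.81 to -0.63, given as a description since this contrast led to their choice. Array quality weights moved most counts: 5007 genes passed, 2608 higher and 2399 lower, with 4 of the 9 genes, 4 other selenoproteins, 5 machinery genes, 3 cysteine relatives, 6 glutathione and thioredoxin partners and 3 thyroid hormone genes. The mean over probe sets gave 3436 genes, 1482 of them lower, 4 of the 9, 4 other selenoproteins, 5 machinery genes, 2 cysteine relatives and 2 thyroid hormone genes. Brighter probe sets gave 4 machinery genes, 2 cysteine relatives, 5 partners and 2 thyroid hormone genes. The brightest probe set gave 1 other selenoprotein and 1 machinery gene and turned Lrp8 to -0.12. The filter at the 50th percentile gave 5 machinery genes, 2 cysteine relatives and 5 partners, and no filter gave 1 machinery gene. The intensity trend gave 6 machinery genes, 1 cysteine relative and 6 partners, median centring 1 cysteine relative and 5 partners, and repeated quantile normalization 1 cysteine relative. These list counts hold both directions. Wherever Secisbp2, Secisbp2l, Msrb3, Prdx5 or Gss passed, the gene was lower. The other genes added to the machinery, cysteine and partner lists were higher. The cause of these shifts was not tested.

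Leaving out single arrays gave 1046 to 2446 genes, 663 to 1482 higher and 383 to 964 lower, 2 to 3 of the 9, 1 to 3 other selenoproteins, 0 to 3 machinery genes, 2 to 3 partners and 0 to 1 thyroid hormone genes. The labels do not say whether same-numbered arrays were paired. Deviations of same-numbered arrays from their group means correlated at 0.025, 0.19 and -0.00036 over 14291 genes. Those of different-numbered arrays correlated at -0.10 to 0.069. Deviations within a group of 3 arrays cancel out, so these values cannot decide whether the arrays were paired. With the replicate number as a block, 1970 genes passed, 2 of the 9 among them. Dim signal limits Ppargc1a, Lrp2, Dio1, the control level of Slc7a11 and the dim probe sets.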

Other observations

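One Txnrd2 probe set was far more variable than the gene, reading 9.45, 8.40 and 11.12 in controls and 8.29, 8.38 and 10.31 after insulin.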
